A study of Mus musculus with 13 samples.

Results

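Megakaryocyte and platelet genes were followed in blood stem and progenitor cells of mice that carry the leukaemia fusion PML-RARA. The group held 10 genes: Vwf, Itga2b, Itgb3, Pf4, Gp5, Gp9, Selp, Clec1b, Mmrn1 and Cd9. Its measurements were the array probe sets annotated to exactly 1 of these genes, 159 of 229581 probe sets, in a table that named 16277 genes. Probe sets were listed for 9 of the 10 genes: 63 for Vwf, 35 for Itga2b, 18 for Selp, 14 for Itgb3, 10 for Cd9, 9 for Clec1b, 5 for Pf4, 3 for Gp9 and 2 for Gp5. No probe set was listed for Mmrn1, which was not analysed here. Clec1b lay below the filter on dim genes and Gp5 had fewer than 3 probe sets, so 7 of the 10 genes entered the tests and the other 2 are given as levels.

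RNA came from sorted bone marrow cells of Bl/6 Taconic mice, 1 mouse per array, on 13 arrays in 5 groups. The mutant mice (mCG-PR, generation N17) express PML-RARA from the murine cathepsin G locus, a gene of myeloid cells, so the fusion is made only where that locus is active. There were 2 arrays of mCG-PR SLAM at 7 weeks, 2 of WT SLAM at 6 weeks, 2 of mCG-PR KLS at 13 weeks, 3 of mCG-PR KLS at 6 weeks and 4 of WT KLS, whose replicates 1 and 2 were 13 weeks old and replicates 3 and 4 were 12 weeks old. KLS cells carry Kit and Sca1 without lineage markers and hold stem cells and multipotent progenitors, and SLAM cells are the fraction enriched for long-term stem cells by receptors of the SLAM family. Not given in the sources used here were the exact gates. In the WT comparison of SLAM with KLS the populations also differed in age, and the effects of population and age cannot be told apart there. The mCG-PR comparison set cells of 7 weeks against cells of 6 weeks. In mCG-PR KLS of 6 weeks against WT KLS of 12 to 13 weeks, genotype and age cannot be told apart.

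The populations were checked on the defining receptors. Cd48, which SLAM sorting selects against, averaged log2 4.25 in mCG-PR SLAM against 9.37 in mCG-PR KLS of 6 weeks, and 5.13 in WT SLAM against 8.83 in WT KLS. Slamf1, the receptor that SLAM sorting selects for, averaged 7.58 in WT SLAM against 5.87 in WT KLS and passed the test there, though not without either WT SLAM array (adjusted p 0.206 and 0.173 in limma). In mCG-PR SLAM it was 6.21 and 6.63, against 5.48, 5.17 and 5.74 in mCG-PR KLS of 6 weeks, which did not pass. SLAM arrays scattered more than KLS arrays, with a median within-group SD over genes of 0.33 and 0.22 on the log2 scale, and were given a lower weight in the fit (0.45 and 1.43). The mean of the Y-linked genes Eif2s3y and Kdm5d was 4.28 and 4.23 in mCG-PR SLAM and 4.53 in replicate 3 of mCG-PR KLS of 6 weeks, against 7.67 to 8.48 on the other 10 arrays, so in SLAM it differed together with genotype and the contributions of the mice's sex and genotype cannot be told apart. In mCG-PR KLS of 6 weeks, replicates 1 and 2 read 8.46 and 8.38. In mCG-PR SLAM against these KLS arrays, sex and population thus cannot be fully told apart.

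Megakaryocytes are the large bone marrow cells that shed platelets. Platelets carry a fibrinogen receptor and a receptor for von Willebrand factor on their surface, and store adhesive proteins and chemokines in their alpha-granules for release on activation. Several of these genes are already transcribed in blood stem cells, and in mice Vwf marks stem cells that are biased towards the platelet lineage.

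Promoter windows of 300 bases, 250 before and 50 after the annotated start, were listed for 8 of the 10 genes in the RefSeq table (GRCm38.p6). Vwf and Itgb3 had no entry. The windows of Pf4, Gp9 and Itga2b are shown because on both mCG-PR SLAM arrays their gene values lay below both WT SLAM arrays and below all mCG-PR KLS arrays of 6 weeks, as given further on. Each is written from 5′ to 3′ on the strand of the gene, and capitals mark matches on either strand to a GATA motif (AGATAA or TGATAA) or an ETS motif (AGGAAG or CGGAAG), the letters bound by transcription factor families that act in megakaryocytes. The windows are chr5:90772185-90772484 on the plus strand for Pf4, chr6:87777820-87778119 on the plus strand for Gp9 and chr11:102469834-102470133 on the minus strand for Itga2b.
Pf4: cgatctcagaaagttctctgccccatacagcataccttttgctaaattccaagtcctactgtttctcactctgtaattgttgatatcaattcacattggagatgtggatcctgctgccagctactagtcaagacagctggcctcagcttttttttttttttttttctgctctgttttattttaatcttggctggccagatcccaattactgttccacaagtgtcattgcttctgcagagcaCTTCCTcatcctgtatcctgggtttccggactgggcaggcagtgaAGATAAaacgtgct
Gp9: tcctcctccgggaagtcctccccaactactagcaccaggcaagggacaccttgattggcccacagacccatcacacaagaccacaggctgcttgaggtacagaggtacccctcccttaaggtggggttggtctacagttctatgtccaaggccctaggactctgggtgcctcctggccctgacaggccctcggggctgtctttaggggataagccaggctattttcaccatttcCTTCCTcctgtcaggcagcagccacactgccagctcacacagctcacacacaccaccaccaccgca
Itga2b: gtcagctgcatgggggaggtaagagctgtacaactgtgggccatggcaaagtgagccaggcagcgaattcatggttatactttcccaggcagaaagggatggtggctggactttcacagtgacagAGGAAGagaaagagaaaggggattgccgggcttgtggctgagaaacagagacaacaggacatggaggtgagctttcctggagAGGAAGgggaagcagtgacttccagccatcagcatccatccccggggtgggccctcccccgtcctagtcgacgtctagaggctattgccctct
The Pf4 window held 1 GATA match, at position 37 counted from 1 at the annotated start, and 1 ETS match at position -9. The Gp9 window held 1 ETS match at position -16, and the Itga2b window held 2, at positions -125 and -43. Over the 8 listed genes, 4 windows held a GATA match (Pf4, Gp5, Clec1b and Mmrn1) and 6 held an ETS match (Itga2b, Pf4, Gp5, Gp9, Selp and Cd9). Over all 32851 windows in the table the shares were 18.6% for GATA and 46.5% for ETS. The 2 motifs do not overlap in their letters, and a match describes the sequence only.

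Vwf, the gene of von Willebrand factor, which is stored in platelet alpha-granules and in endothelial cells, was the one member whose gene value passed a test between the 5 groups, and it did so in both genotypes. It was higher in SLAM than in KLS cells. In mCG-PR SLAM the log2 intensity of Vwf was 7.31 and 7.26, against 6.47, 6.46 and 6.49 in mCG-PR KLS of 6 weeks. In WT SLAM it was 7.56 and 7.73, against 6.47, 6.47, 6.51 and 6.58 in WT KLS. Every SLAM array lay above every KLS array, and the 9 KLS arrays spanned only 6.46 to 6.66. The difference of mCG-PR SLAM from mCG-PR KLS of 6 weeks was 0.81 ± 0.22 (SE, 95% interval 0.35 to 1.27), 1.75-fold, with an adjusted p of 0.0242 in limma. The difference of WT SLAM from WT KLS was 1.14 ± 0.21 (SE, 0.68 to 1.59), 2.2-fold, with an adjusted p of 0.0117 in limma. In bulk RNA, more cells that express a gene and more of its RNA in each cell cannot be told apart.

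The count of members called was 1 of 7 in each of these comparisons, both higher. Over all 10575 tested genes, 0.813% were called higher in mCG-PR SLAM than in mCG-PR KLS of 6 weeks and 12.3% lower, and 0.35% were called higher in WT SLAM than in WT KLS and 2.77% lower. The median of all genes was -0.19 in the mCG-PR comparison and -0.05 in the WT comparison. Relative to it, Vwf was higher by 1.00 in mCG-PR and by 1.19 in WT. Of all genes, 13.2% in the mCG-PR comparison and 12.9% in the WT comparison were higher on every SLAM array than on every KLS array. With 2 SLAM arrays per genotype, each call rested on both of them. Without mCG-PR SLAM replicate 1 or 2 the difference was 0.79 or 0.84, with adjusted p of 0.175 and 0.141 in limma, and without WT SLAM replicate 1 or 2 it was 1.22 or 1.05, with adjusted p of 0.0678 and 0.129.

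**Figure D1:**
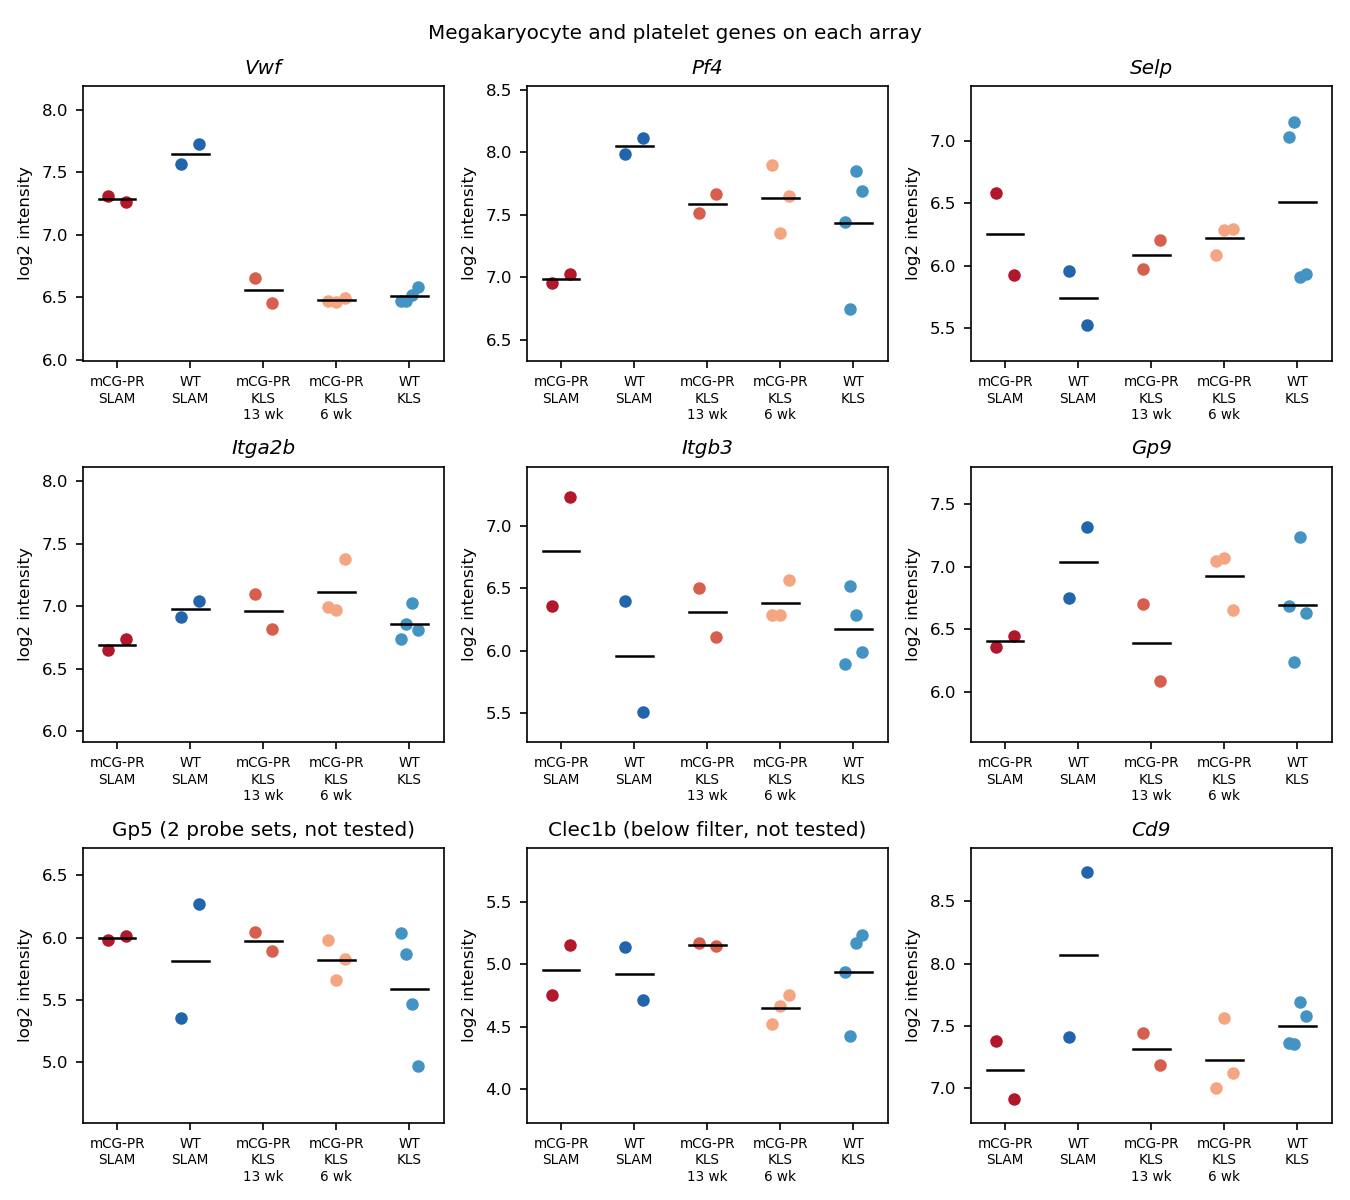
Log2 intensity of the 9 measured genes (y axis) on each of the 13 arrays, by group (x axis); points are single arrays and lines are group means. Vwf lay between 7.26 and 7.73 on the 4 SLAM arrays and between 6.46 and 6.66 on the 9 KLS arrays, and Selp was at 7.03 and 7.15 on the WT KLS arrays of 13 weeks.

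Along the 5 groups, Vwf averaged 7.29 ± 0.035 in mCG-PR SLAM, 7.65 ± 0.12 in WT SLAM, 6.56 ± 0.14 in mCG-PR KLS of 13 weeks, 6.48 ± 0.016 in mCG-PR KLS of 6 weeks and 6.51 ± 0.055 in WT KLS (SD). The 3 KLS groups overlapped. Between the SLAM groups, both mCG-PR arrays lay below both WT arrays, but the difference of -0.36 (95% interval -0.96 to 0.24) did not pass, with an adjusted p of 0.927 in limma. The 63 probe sets of Vwf were split there, with 29 higher and 34 lower in mCG-PR SLAM and a median difference of -0.075. With no overlap, 14 were lower (22.2%, against 16.6% of all probe sets) and 6 (9.52%) were higher. The share of all probe sets that were higher with no overlap is not given here. The change in the genotype difference between SLAM and KLS was -0.37 ± 0.30 (SE), with an adjusted p of 0.879. The pooled within-group SD of Vwf was 0.086 in SLAM and 0.070 in KLS, below the medians over genes given above. It is the SD of a median over 63 probe sets, more than any other member has. Single probe sets could vary far more: 4410571 read 4.05 and 8.88 in WT SLAM.

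The exon array allowed Vwf to be read at 63 places. In mCG-PR SLAM 52 probe sets were higher than in mCG-PR KLS of 6 weeks and 11 were lower, from -0.93 to 3.40. In WT SLAM 61 were higher than in WT KLS and 2 were lower, from -0.13 to 3.23. With no overlap between arrays, 26 (41.3%) were higher in the mCG-PR comparison and 32 (50.8%) in the WT comparison, against 14.1% and 12% of all 208397 probe sets. The comparisons share no array, and 16 probe sets were in both sets. These were 61.5% of the mCG-PR set, where the WT set held 50.8% of all 63. They were 50% of the WT set, where the mCG-PR set held 41.3% of all 63. The overlap was not tested. In limma, 7 Vwf probe sets passed in the mCG-PR comparison and 2 in the WT comparison, all higher, where 0.171% and 0.0701% of all probe sets were called higher. The spread between probe sets of the gene was wide. The probe set with the largest WT difference, 5078664, read 9.37 and 9.22 in mCG-PR SLAM, 8.38 and 9.66 in WT SLAM and 5.41 to 6.53 on the KLS arrays. Probe set 4868126, which passed in the WT comparison (2.04, adjusted p 0.0392 in limma), was lower in mCG-PR SLAM. It read 6.32 and 6.22 there, against 7.19, 7.01 and 7.38 in mCG-PR KLS of 6 weeks. It was the 1 Vwf probe set lower in that comparison with no overlap (1.59%, against 21.8% of all probe sets). Probe sets of 1 gene share their RNA and are not replicates.

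**Figure D2:**
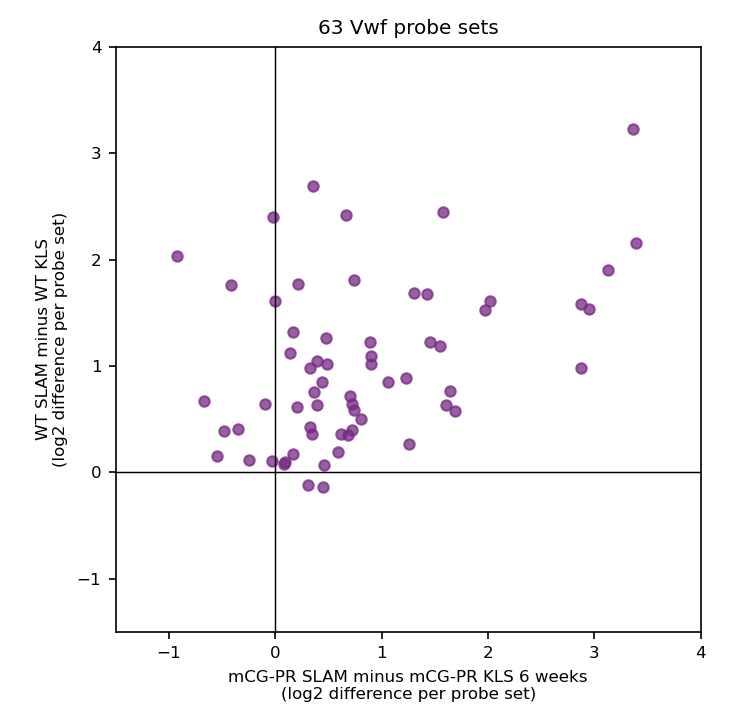
Log2 difference of each of the 63 Vwf probe sets in mCG-PR SLAM minus mCG-PR KLS of 6 weeks (x axis) and in WT SLAM minus WT KLS (y axis); points are probe sets. Most points lie above 0 on both axes, 52 of 63 on the x axis and 61 of 63 on the y axis.

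Endothelial cells also make von Willebrand factor, and their markers were read beside it. The mean of the 15 measured of 16 listed endothelial genes was 6.39 to 6.40 in mCG-PR SLAM, 6.47 to 6.52 in WT SLAM, 6.06 to 6.24 in mCG-PR KLS of 13 weeks, 6.06 to 6.14 in mCG-PR KLS of 6 weeks and 5.91 to 6.03 in WT KLS. It was thus higher on the SLAM arrays. Of the 8 listed genes that were tested, 7 were higher in mCG-PR SLAM than in mCG-PR KLS of 6 weeks, with a median of 0.37 beside -0.19 over all genes; 0 were called in limma and 2 had an unadjusted p under 0.05. In WT SLAM, 7 of 8 were higher than in WT KLS, with a median of 0.62 beside -0.05; 1 was called and 4 had an unadjusted p under 0.05. The called gene was Tek, the angiopoietin receptor, which stem cells also express, at 7.73 and 7.37 in WT SLAM against 5.58 to 6.33 in WT KLS, and its call was lost without either WT SLAM array (adjusted p 0.162 and 0.0884 in limma). In mCG-PR SLAM Tek read 6.07 and 6.61, against 5.58 to 6.33 over all KLS arrays. Eng, a co-receptor of the transforming growth factor beta family, was at 8.34 and 7.84 in mCG-PR SLAM and 8.17 and 8.30 in WT SLAM, against 7.11 to 7.58 in KLS. Tie1, the orphan receptor related to Tek, was at 7.42 and 7.87 in mCG-PR SLAM and 7.63 and 7.77 in WT SLAM, against 6.83 to 7.26 in KLS. On both genes every SLAM array lay above every KLS array. In the mCG-PR comparison alone 13.2% of all genes were higher with no overlap, and in the WT comparison alone 12.9%. The share over both genotypes together is not given here. Kdr, the vascular endothelial growth factor receptor, was at 5.07 and 4.69 in mCG-PR SLAM, 4.65 and 4.30 in WT SLAM and 4.51 to 5.10 in KLS. Cdh5, the cadherin of endothelial junctions, was at 5.33 and 5.37 in mCG-PR SLAM and 6.06 and 5.97 in WT SLAM, against 5.17 to 6.62 in KLS. The part of endothelial RNA in the Vwf result was not tested.

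Pf4, the platelet factor 4 chemokine of the alpha-granules, showed a different order of groups. Its log2 intensity was 6.95 and 7.02 in mCG-PR SLAM, against 7.99 and 8.11 in WT SLAM. It was 7.51 and 7.66 in mCG-PR KLS of 13 weeks, 7.90, 7.35 and 7.65 in mCG-PR KLS of 6 weeks, and 7.44, 6.75, 7.85 and 7.69 in WT KLS. In the gene value, the mCG-PR SLAM arrays lay below every array but WT KLS replicate 2, and the WT SLAM arrays lay above every other array. Single probe sets did not separate WT SLAM from WT KLS. All 5 were higher in WT SLAM, by 0.18 to 0.58, but 0 of the 5 had no overlap, against 12% of all probe sets. The difference of mCG-PR SLAM from WT SLAM was -1.06 (95% interval -2.14 to 0.01), with an unadjusted p of 0.052 and an adjusted p of 0.696 in limma, which did not pass. The genotype difference in SLAM minus that in KLS was -1.24 (95% interval -2.40 to -0.091), with an unadjusted p of 0.036 and an adjusted p of 0.593 in limma. It was -0.65 (-1.48 to 0.19) in mCG-PR SLAM against mCG-PR KLS of 6 weeks and 0.62 (-0.20 to 1.44) in WT SLAM against WT KLS. With the mean of the probe sets in place of their median, the difference of mCG-PR SLAM from WT SLAM was -1.73 and that from mCG-PR KLS of 6 weeks was -1.54.

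All 5 Pf4 probe sets were lower in mCG-PR SLAM than in WT SLAM with no overlap, by 0.80 to 2.67 on the log2 scale, and all 5 were lower than in mCG-PR KLS of 6 weeks. The shares of all probe sets lower with no overlap were 16.6% and 21.8%. None of the 5 passed the test, and over all probe sets 0.00576% and 2.08% were called lower in these comparisons. In probe set 4484692, Pf4 read 5.11 and 3.88 in mCG-PR SLAM against 6.21 and 8.11 in WT SLAM. The markers of other cells moved too. The mean of the 10 listed macrophage genes was 5.91 to 6.33 in mCG-PR SLAM against 6.65 to 6.72 in WT SLAM, with 5 of 6 tested genes lower and 0 called, and 0 had an unadjusted p under 0.05. The mean of 10 of 11 listed late neutrophil genes was 7.53 to 8.53 in mCG-PR SLAM against 8.47 to 10.6 in WT SLAM, the highest value being WT SLAM replicate 2, and 0 of 10 were called, with 6 at an unadjusted p under 0.05. The mean of 12 of 16 listed erythroid genes was 6.68 to 6.74 in mCG-PR SLAM against 6.75 to 7.50 in WT SLAM, with 8 of 9 tested genes lower, 0 called and 1 at an unadjusted p under 0.05. Without WT SLAM replicate 2 the Pf4 difference was -1.0. The part of these other cells in the Pf4 values was not tested.

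Itga2b and Itgb3 encode the chains of the platelet fibrinogen receptor. Itga2b (CD41), also a marker of early blood cells, was 6.65 and 6.74 in mCG-PR SLAM, against 6.91 and 7.04 in WT SLAM. In mCG-PR KLS it was 7.10 and 6.82 at 13 weeks and 6.99, 6.97 and 7.38 at 6 weeks, against 6.74, 6.86, 7.03 and 6.81 in WT KLS. The mCG-PR SLAM arrays lay at the low end of the 13, and the differences were small. The difference of mCG-PR SLAM was -0.28 from WT SLAM (± 0.33, SE, adjusted p 0.986 in limma) and -0.42 from mCG-PR KLS of 6 weeks (± 0.26, SE, adjusted p 0.333). Of its 35 probe sets, 24 were lower in mCG-PR SLAM than in WT SLAM and 8 of these had no overlap (22.9%, against 16.6% of all probe sets). Against mCG-PR KLS of 6 weeks, 27 of the 35 were lower, 10 with no overlap (28.6%, against 21.8% of all probe sets), and 1 passed the test in limma, where 2.08% of all probe sets were called lower: probe set 5542467, at 5.27 and 7.95 in mCG-PR SLAM against 9.63, 10.1 and 9.72 in mCG-PR KLS of 6 weeks. Against WT SLAM, a pair of probe sets with large differences that rested on WT SLAM replicate 2 was 5519411, at 6.20 and 6.06 in mCG-PR SLAM against 7.16 and 10.7 in WT SLAM, and 5586737, at 6.36 and 5.12 in mCG-PR SLAM against 5.95 and 9.55 in WT SLAM.

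Itgb3 (integrin beta 3) read 6.36 and 7.23 in mCG-PR SLAM, against 6.40 and 5.51 in WT SLAM. In KLS it lay between 6.11 and 6.57 on the mCG-PR arrays and between 5.89 and 6.52 on the WT arrays. The SLAM groups overlapped, and the difference of 0.84 (95% interval -0.12 to 1.80) did not pass, with an adjusted p of 0.763 in limma. Without mCG-PR SLAM replicate 2 it was 0.40, and without WT SLAM replicate 2 it was also 0.40, so the difference depended on replicate 2 of each group. A pair of its 14 probe sets stood apart. Probe set 4591897 read 11.2 and 8.99 in mCG-PR SLAM, against 4.48 and 4.92 in WT SLAM and 4.27 to 6.88 in KLS, and probe set 4389648 read 10.1 and 8.35 in mCG-PR SLAM, against 7.64 and 6.76 in WT SLAM. Probe set 4591897 was the one Itgb3 probe set that passed against mCG-PR KLS of 6 weeks, by 4.67, where 0.171% of all probe sets were called higher; over all 14 probe sets the median difference there was 0.20.

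**Figure D3:**
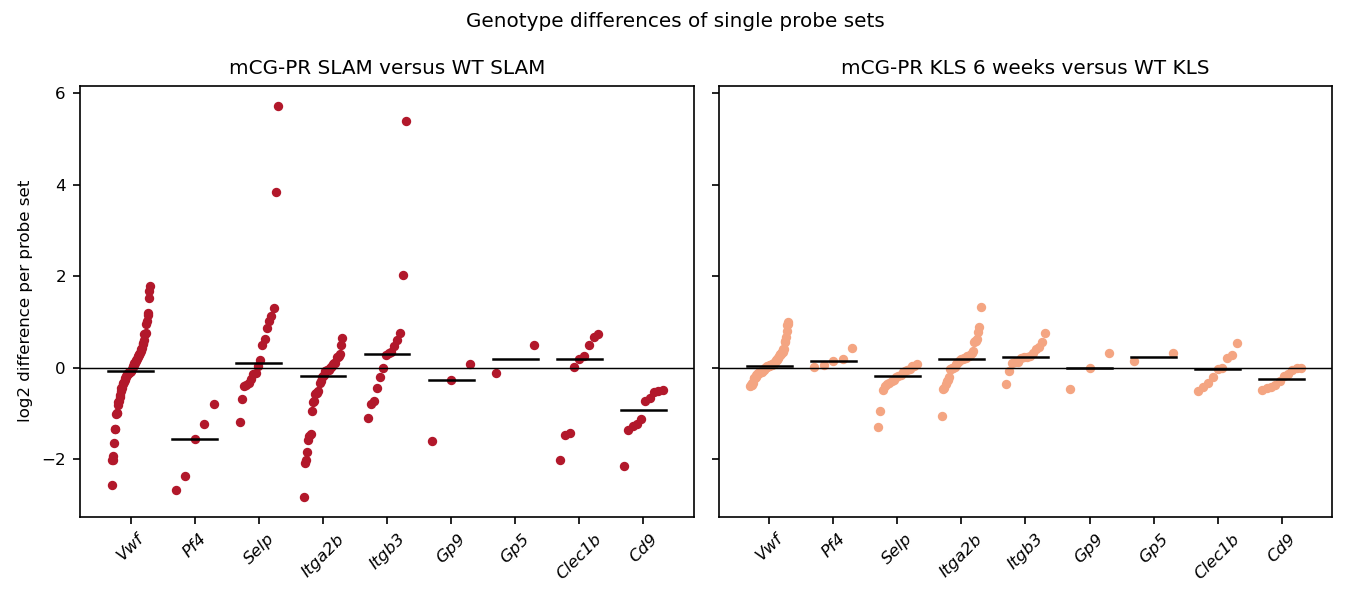
Log2 difference of each probe set (y axis) for each gene (x axis) in mCG-PR SLAM versus WT SLAM (left) and mCG-PR KLS of 6 weeks versus WT KLS (right); points are probe sets in order of size and lines are medians. All 5 Pf4 and all 10 Cd9 probe sets lie below 0 on the left, and single probe sets of Selp and Itgb3 reach 5.73 and 5.41.

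Gp9 and Gp5 belong to the platelet receptor for von Willebrand factor. Gp9 was 6.36 and 6.44 in mCG-PR SLAM, against 6.75 and 7.31 in WT SLAM. In KLS it was 6.70 and 6.08 in mCG-PR of 13 weeks, 7.05, 7.07 and 6.65 in mCG-PR of 6 weeks and 6.69, 6.23, 7.24 and 6.63 in WT. The SLAM arrays did not overlap, and the difference of -0.63 (95% interval -1.70 to 0.44) had an adjusted p of 0.929 in limma. Of its 3 probe sets, 4627014 carried the largest difference, at 6.36 and 6.44 in mCG-PR SLAM against 7.98 and 8.03 in WT SLAM. It was the only 1 of the 3 with no overlap. Probe set 4793444 read 6.65 and 6.89 in mCG-PR SLAM against 6.75 and 7.31 in WT SLAM, and 4768608 differed by 0.09. Between mCG-PR KLS of 13 and 6 weeks, Gp9 differed by -0.53 (-1.08 to 0.016), with an unadjusted p of 0.056 and an adjusted p of 0.427. Gp5, from 2 probe sets, was 5.98 and 6.01 in mCG-PR SLAM and 5.36 and 6.27 in WT SLAM. In KLS it was 6.05 and 5.89 in mCG-PR of 13 weeks, 5.66 to 5.98 in mCG-PR of 6 weeks and 4.97 to 6.04 in WT, and all groups overlapped with WT KLS.

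Cd9, a tetraspanin of the platelet surface that many blood cells carry, was 7.38 and 6.92 in mCG-PR SLAM, against 7.41 and 8.73 in WT SLAM. In KLS it was 7.44 and 7.19 in mCG-PR of 13 weeks, 7.00, 7.56 and 7.12 in mCG-PR of 6 weeks and 7.37, 7.36, 7.69 and 7.58 in WT. WT SLAM replicate 2 was the highest array by far. The difference of mCG-PR SLAM from WT SLAM was -0.92 (95% interval -1.86 to 0.02), with an unadjusted p of 0.055 and an adjusted p of 0.702 in limma. It was -0.26 without WT SLAM replicate 2 and -1.58 without WT SLAM replicate 1. All 10 probe sets were lower in mCG-PR SLAM, by 0.49 to 2.14, and 6 of them had no overlap (60%, against 16.6% of all probe sets).

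Clec1b (CLEC-2), the platelet receptor for podoplanin, had a dim median over its 9 probe sets. It read 4.76 and 5.16 in mCG-PR SLAM, 4.71 and 5.14 in WT SLAM, 5.14 and 5.17 in mCG-PR KLS of 13 weeks, 4.52 to 4.75 in mCG-PR KLS of 6 weeks and 4.43 to 5.23 in WT KLS. These values lay below the filter at log2 6.0. Single probe sets were brighter: 4585449 read 7.47 to 8.46 over the 13 arrays and 4933413 read 6.18 to 6.99. A fit with no filter and a minimum of 2 probe sets, chosen after seeing the data, gave Clec1b and Gp5 a value and called neither in any of the 7 comparisons. Its smallest unadjusted p was 0.039 for Clec1b in mCG-PR KLS of 13 against 6 weeks, a difference of 0.51, with an adjusted p of 0.481 in limma.

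**Figure D4:**
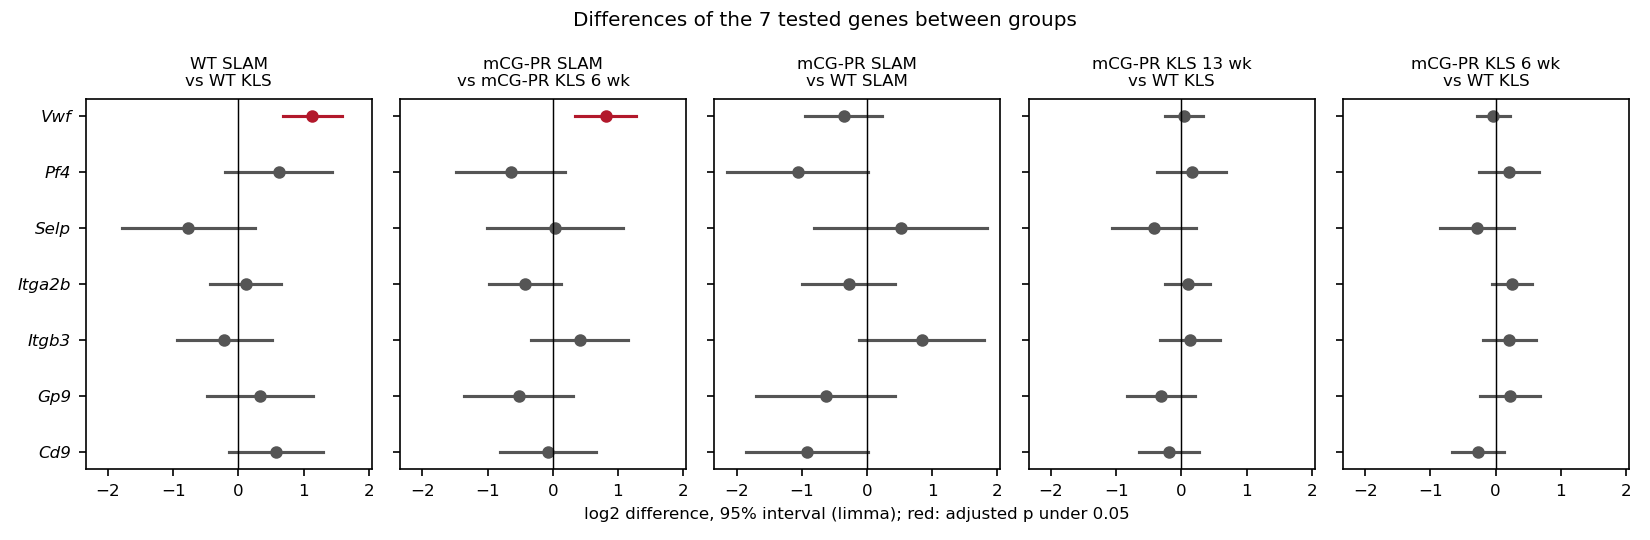
Log2 difference (point) with its 95% interval from limma (line) on the x axis for the 7 tested genes (y axis) in 5 comparisons; red marks an adjusted p under 0.05. Vwf in SLAM against KLS is marked in both genotypes, at 1.14 in WT and 0.81 in mCG-PR, and no other interval is marked.

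Between genotypes, 0 of the 7 tested genes passed in limma in mCG-PR SLAM against WT SLAM, in mCG-PR KLS of 6 weeks or of 13 weeks against WT KLS, or in mCG-PR KLS of 13 against 6 weeks, and in each of these 0 had an unadjusted p under 0.05. The shares of all genes called were 0.0284%, 0.113%, 0% and 0.00946%. Of the change in genotype difference between SLAM and KLS, 0 of 7 passed and 1, Pf4, had an unadjusted p under 0.05, where 0% of all genes were called. With no overlap, 5 of 7 (Vwf, Itga2b, Pf4, Gp9 and Cd9) were lower in mCG-PR SLAM than in WT SLAM, where 18.8% of all genes were. The median of the 7 genes there was -0.36, beside -0.02 over all genes. The probe sets of Vwf, Itga2b and Gp9 were split in direction in this comparison, as given for each gene. Against mCG-PR KLS of 6 weeks, 3 of 7 (Itga2b, Pf4 and Gp9) were lower in mCG-PR SLAM with no overlap, where 35.1% of all genes were. In KLS the median was 0.05 at 13 weeks, beside 0.05 over all genes, and 0.20 at 6 weeks, beside 0.11. The KLS intervals were narrower than those in SLAM. The difference of Vwf in mCG-PR KLS from WT KLS was 0.05 (-0.24 to 0.34) at 13 weeks and -0.03 (-0.29 to 0.22) at 6 weeks. For Itga2b it was 0.10 (-0.25 to 0.45) at 13 weeks and 0.25 (-0.05 to 0.56) at 6 weeks. Both ages were set against the same WT KLS arrays.

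Selp, the gene of P-selectin, which activated platelets and endothelial cells bring to their surface, split the WT KLS arrays by age. It was 7.03 and 7.15 in the WT KLS mice of 13 weeks, against 5.91 and 5.94 in those of 12 weeks. In mCG-PR KLS of 13 weeks it was 5.97 and 6.20, and in mCG-PR KLS of 6 weeks 6.08, 6.28 and 6.29. It was 6.58 and 5.93 in mCG-PR SLAM and 5.95 and 5.53 in WT SLAM. The 2 WT KLS mice of 13 weeks were thus the highest of all arrays, and the mCG-PR mice of that age were not raised with them. In a fit with 6 groups chosen after seeing the data, the WT KLS mice of 13 weeks differed from those of 12 weeks by 1.17 ± 0.19 (SE), with an unadjusted p of 2.01e-05 and an adjusted p of 0.0709 in limma, which did not pass, and 0% of all genes passed higher. All 18 Selp probe sets were higher at 13 weeks, by 0.15 to 2.63, and 14 had no overlap, against 17.7% of all probe sets. Of all genes, 0.123% were higher by at least 1 with no overlap. Pf4 differed by -0.68 in this contrast (unadjusted p 0.011, adjusted p 0.683 in limma). Age and whatever else these mice shared cannot be told apart.

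The choice of WT KLS mice therefore set the Selp comparisons. Against all 4, Selp differed by -0.42 (95% interval -1.07 to 0.23) in mCG-PR KLS of 13 weeks and -0.29 (-0.86 to 0.28) in mCG-PR KLS of 6 weeks. Against the WT mice of 13 weeks only, these were -1.0 (adjusted p 0.081 in limma) and -0.87 (adjusted p 0.0764). Against those of 12 weeks only, they were 0.16 and 0.30. In WT SLAM against WT KLS, Selp differed by -0.77 with all 4 mice and did not pass, and by -1.35 with those of 13 weeks only, which did (adjusted p 0.0325 in limma). With those of 12 weeks only it was -0.18 (adjusted p 0.795). A pair of Selp probe sets differed widely between the SLAM groups. Probe set 4844189 read 9.17 and 8.38 in mCG-PR SLAM, 2.51 and 3.58 in WT SLAM and 5.54 to 8.49 in KLS. Probe set 4657847 read 8.84 and 8.44 in mCG-PR SLAM, 5.08 and 4.49 in WT SLAM and 6.42 to 8.39 in KLS. In both, the WT SLAM arrays lay below every KLS array. Neither passed the test of mCG-PR SLAM against WT SLAM, where 0.0024% of all probe sets were called higher. The median over the 18 probe sets there was 0.10.

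**Figure D5:**
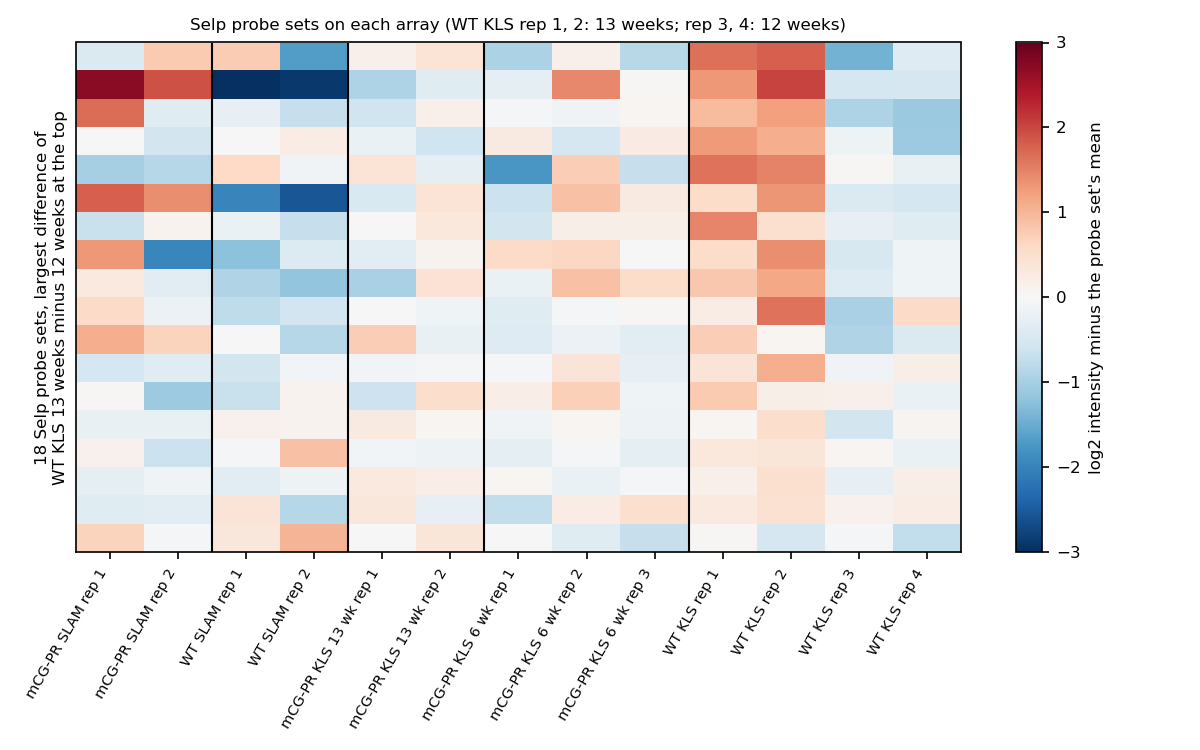
Log2 intensity of the 18 Selp probe sets (rows) minus each probe set's mean over the 13 arrays (columns), colours limited at 3 either way. WT KLS replicates 1 and 2, the mice of 13 weeks, are above replicates 3 and 4 in all 18 rows on average, and mCG-PR SLAM differs from WT SLAM by up to 5.73 in a single row.

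Across the 9 KLS arrays the members did not move as 1 group. The correlation (Pearson r, n = 9) of each gene with the mean of the other members was 0.05 for Vwf, 0.36 for Itga2b, 0.01 for Itgb3, -0.35 for Pf4, 0.33 for Gp9, -0.72 for Selp and -0.11 for Cd9. The closest pair was the fibrinogen receptor pair Itga2b and Itgb3 (r = 0.76), and the most opposed was Pf4 and Selp (r = -0.79). Outside the group, the genes most like the members' centred mean were Wdr46 (r = 0.93), Hyls1 (0.93), Teddm1b (0.92), Scand1 (0.91) and Ap2a1 (0.90). The arrays share groups and scaling, so these are descriptions.

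The wider platelet programme was read in 4 lists of other megakaryocyte and platelet genes. In SLAM against KLS, 4 of the 53 tested genes passed in the mCG-PR comparison (7.55%, against 13.1% of all genes) and 5 in the WT comparison (9.43%, against 3.12% of all genes). Of 11 tested transcription factors, 0 were called higher and 1 was called lower in both genotypes. This was Ikzf2, the Ikaros family factor Helios, at 8.39 and 7.98 in mCG-PR SLAM against 9.12 to 9.25 in mCG-PR KLS of 6 weeks (-1.01, adjusted p 0.0346 in limma) and at 7.42 and 7.36 in WT SLAM against 8.81 to 9.32 in WT KLS (-1.75, adjusted p 0.00653). Of 17 tested surface receptors, 0 passed in either genotype, with 4 and 2 at an unadjusted p under 0.05. The smallest p in mCG-PR was for the thrombin receptor family gene F2rl2 (-1.14, adjusted p 0.0633), and in WT for Itga2, the alpha chain of a collagen receptor (-0.85, adjusted p 0.133). The medians of the lists were -0.06 for factors and 0.09 for receptors in mCG-PR, beside -0.19 over all genes. In WT they were 0.20 and 0.06, beside -0.05.

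Of 11 tested granule and secreted proteins, 0 were called higher and 1 was called lower in mCG-PR SLAM than in mCG-PR KLS of 6 weeks. In WT SLAM against WT KLS, 2 were called higher and 0 lower. In the mCG-PR comparison F13a1, the A subunit of coagulation factor XIII, was lower, at 5.20 and 4.79 in SLAM against 6.67 to 8.05 in KLS (-2.19, adjusted p 0.031 in limma). In the WT comparison Sparc, a matrix protein of the alpha-granules, was higher, at 8.86 and 7.56 in SLAM against 6.24 to 6.93 in KLS (1.64, adjusted p 0.0409). The difference was 0.99 without WT SLAM replicate 1 and 2.29 without replicate 2. Clu, the granule protein clusterin, was also higher, at 7.26 and 6.96 in WT SLAM against 5.58 to 5.73 in WT KLS (1.42, adjusted p 0.0238). In mCG-PR SLAM, Sparc read 6.56 and 6.49 and Clu 5.97 and 6.78. The list's median was -0.41 in mCG-PR and 0.28 in WT.

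Of 14 tested signalling and cytoskeletal genes, 1 was called higher and 1 was called lower in each genotype. Plek (pleckstrin), the protein kinase C substrate of platelets and other blood cells, was lower in both. It was 6.45 and 7.82 in mCG-PR SLAM against 9.30 to 9.56 in mCG-PR KLS of 6 weeks (-2.33, adjusted p 0.0012 in limma), and 6.03 and 7.02 in WT SLAM against 9.38 to 9.77 in WT KLS (-3.02, adjusted p 4.12e-04). The gene called higher was Tbxas1, thromboxane synthase, in mCG-PR SLAM (9.13 and 9.03, against 7.58 to 7.99 in KLS of 6 weeks, 1.31, adjusted p 0.0148), and Gucy1a1, a subunit of the nitric oxide receptor, in WT SLAM (7.65 and 8.08, against 6.59 to 6.89 in WT KLS, 1.12, adjusted p 0.0174). Each was also higher on both SLAM arrays of the other genotype, without a call. Tbxas1 read 8.91 and 9.47 in WT SLAM against 7.83 to 8.56 in WT KLS. Gucy1a1 read 7.43 and 7.61 in mCG-PR SLAM against 6.81 to 6.84 in mCG-PR KLS of 6 weeks. When either SLAM array of the genotype was left out, Plek passed in both comparisons and the other called genes of the 4 lists did not.

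In the comparisons between genotypes and ages, 0 of the 53 tested genes of the 4 lists passed in limma. An unadjusted p under 0.05 was seen for 1 gene in mCG-PR SLAM against WT SLAM, 6 and 7 genes in mCG-PR KLS of 6 and of 13 weeks against WT KLS, 4 between mCG-PR KLS of 13 and 6 weeks, and 4 for the change in genotype difference. In mCG-PR SLAM against WT SLAM this gene was Sparc, with a difference of -1.68 (95% interval -2.83 to -0.54, adjusted p 0.43), and the genotype difference of Sparc in SLAM minus that in KLS was -2.06 (-3.28 to -0.83, adjusted p 0.348). Without WT SLAM replicate 1 these were -1.03 and -1.41, and without replicate 2 they were -2.33 and -2.71. The gene with the smallest p in the other lists of the SLAM comparison was Ikzf2 (0.79), F2rl2 (-0.80) and Lcp2 (-0.55), the last an adaptor of platelet receptor signalling. In mCG-PR KLS of 6 weeks against WT KLS it was Mef2c (0.40), the thrombin receptor F2r (0.44), Timp3 (0.75) and Gng11 (-0.41). In mCG-PR KLS of 13 weeks against the same WT arrays it was Ikzf2 (-0.31), Itga6 (-0.52), the angiopoietin Angpt1 (-0.68) and Lcp2 (-0.54). Between mCG-PR KLS of 13 and 6 weeks it was Mef2c (-0.59), the thromboxane receptor Tbxa2r (0.45), Angpt1 (-0.40) and Rap1b (-0.55). For the change in genotype difference it was Ikzf2 (0.92), F2rl2 (-0.59) and Gucy1a1 (-0.52) beside Sparc. Adjusted p over these 20 values ran from 0.16 to 0.902.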

How the data were processed

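Gene expression was measured on Affymetrix Mouse Exon 1.0 ST arrays after amplification of 20 ng of total RNA, per the labels' protocols. The deposited table held 1 intensity per probe set and array on a linear scale, for 229581 probe sets; RMA and the mm9 build are named in the submitters' processing notes, and its settings were not stated there. No count or depth exists for arrays, so their number limits the precision.

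Log2 was taken, and a gene's value was the median of the probe sets listed with 1 gene (208397; 3965 had several and 17219 none), for genes with at least 3. Symbols were updated through the RefSeq table (14132 current, 2124 updated, 43 not in it). Of 15107 such genes, 10575 whose mean log2 value passed the 30th percentile (6.0) were tested. Groups were compared with limma 3.58.1 in R 4.3.3 on all 13 arrays in 1 fit of 5 groups, with array weights by sorted population, two-sided, and Benjamini-Hochberg adjustment over all tested genes at 0.05. The replicates are single mice. The fit was also run on simulated data with independent noise for each gene. Those data hold no deviations shared by the genes of an array, so they cannot show how such deviations affect the calls. Alternatives changed the weights, the filter, the probe set summary, the normalization, the replicate block, the WT KLS mice by age, and left out each array. A fit of single probe sets, a fit that admits Gp5 and Clec1b, the split of WT KLS by age and the list genes, Sparc between genotypes included, without single SLAM arrays were added after seeing the data.

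The members and gene lists were chosen with earlier results of these data known. All members were named. From the lists, up to 4 genes that passed with the largest change were named, otherwise the gene with the smallest p. The genes most like the members were the 5 with the highest Pearson r.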

Additional observations from a re-analysis of the deposited data

How the results depend on the processing

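Of 469 values of the tested members under alternatives other than leaving out an array, 449 kept their direction and side of the threshold, 18 changed sign while passing in neither, 1 lost and 1 gained its call, and 0 reversed. Vwf in WT SLAM against WT KLS passed under 15 of 17 alternatives (1.00 to 1.23, adjusted p 7.84e-04 to 0.129 in limma) and in mCG-PR SLAM against mCG-PR KLS of 6 weeks under 11 of 14 (0.79 to 0.98, 0.00305 to 0.175). The losses were the single SLAM arrays given in the report, so the number of members called ran from 0 to 1 in either comparison on leaving out an array, and, in mCG-PR, the replicate number as a block (0 called, Vwf 0.82, adjusted p 0.0514). Against the WT KLS mice of 13 weeks only, 2 members were called in WT SLAM, with Selp at -1.35. Same-numbered arrays share only a number: the correlations of their deviations ran from -0.066 to 0.078. The block changed no other member's call. Without array weights, 1229 genes were called in WT SLAM against WT KLS (330 with weights), 2394 in mCG-PR SLAM against mCG-PR KLS of 6 weeks (1387), 270 in mCG-PR SLAM against WT SLAM (3), 1 in mCG-PR KLS of 6 weeks against WT KLS (12), and 89 for the change in genotype difference (0), while the member calls stayed at Vwf in the first 2 comparisons. Over the other alternatives that keep all SLAM arrays, the count ran from 174 to 946 in WT SLAM against WT KLS and from 779 to 2012 in mCG-PR SLAM against mCG-PR KLS of 6 weeks. The cause was not tested. Groups of 2 arrays limit all SLAM values, and on leaving out 1 the other is assumed to vary like the rest.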
